A study of Mus musculus with 16 samples.

Results

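Sialic acids are the acidic sugars that cap many glycan chains on the cell surface. The genes described here are 9 that make, activate, transport or break down sialic acid in the mouse: Gne, Nans, Nanp, Cmas, Slc35a1, Renbp, Npl, Neu1 and Neu3. They were chosen by name, as 9 of the 52916 gene symbols listed in both kinds of table deposited, and each was listed once per table. Npl was added to them because its p-value was low when tumours with mannose were compared with control tumours. Its values in the tumours are therefore described without a test wherever they enter a comparison.

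RNA was sequenced in bulk from HM1 tumours, a mouse ovarian cancer model, and values are given as TPM (transcript abundance corrected for transcript length and scaled to a common total in each library). Whole tumour tissue gave 5 libraries with mannose supplementation and 5 control libraries. CD8 T cells sorted from such tumours gave 3 libraries with mannose supplementation and 3 control libraries. The labels give no strain, age, dose, route or duration, do not say whether any group also had the PD-1 antibody named in the series' title, and do not say whether libraries came from separate animals. P-values therefore measure the spread between these libraries, which may be partly technical.

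Cells make sialic acid in the cytosol from an activated form of N-acetylglucosamine. Gne makes and phosphorylates N-acetylmannosamine, Nans condenses it with phosphoenolpyruvate, and Nanp removes the phosphate to leave free sialic acid. Cmas activates the sugar with CMP in the nucleus, and Slc35a1 carries CMP-sialic acid into the Golgi, where sialyltransferases attach it to glycans. For breakdown, the sialidases Neu1 in the lysosome and Neu3 at membranes remove sialic acid from glycans, and Npl cleaves the free sugar to N-acetylmannosamine and pyruvate. Renbp converts N-acetylmannosamine and N-acetylglucosamine into each other. Supplemented mannose is a different sugar from N-acetylmannosamine and is not itself a substrate of these enzymes.

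Several facts of the libraries bear on the results. Read depth is unknown, because TPM values carry no totals. The symbols at 1 TPM or more numbered 12345 in the library with fewest and 14384 in that with most. All 3 CD8 control tables have a value column headed as mannose, and the groups follow the sample labels. An earlier analysis of these tables found that tumour control 1 and tumour mannose 3 stood apart, and that CD8 controls 1 and 2, like CD8 mannose 1 and 2, formed pairs with the same receptor V segments. The sorted libraries carried T cell receptor and coreceptor genes, with 12 T cell markers summing to between 3218 and 6099 TPM in mannose CD8 libraries and between 6127 and 6715 TPM in control CD8 libraries. They also carried RNA of other cells. Macrophage markers (12 genes, none at 0) summed to 1140 to 1511 TPM in mannose and 4102 to 4390 TPM in control CD8 libraries. Keratins and other epithelial and carcinoma markers (12 genes, of which Muc16 was at 0) summed to 1635 to 2505 TPM in mannose and 241 to 537 TPM in control CD8 libraries. Of these 12 genes, 7 averaged under 1 TPM in each CD8 group, Muc16 among them. In bulk samples, fewer cells of a type and less RNA per cell cannot be told apart.

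In every group Nans was the most abundant of the 9 genes and Neu3 the least. Nans averaged 81.8 ± 5.64 TPM in mannose tumours and 85.9 ± 11.4 TPM in control tumours (SD, n = 5 each). In CD8 cells it averaged 73.2 ± 4.43 TPM with mannose and 65.0 ± 4.93 TPM in controls (SD, n = 3 each). Neu3 averaged 1.12 ± 0.184 TPM in mannose tumours and 0.89 ± 0.331 TPM in control tumours, and 2.38 ± 0.315 TPM in mannose and 3.04 ± 0.474 TPM in control CD8 cells. The gene whose place in the order moved most was Npl. It stood between Renbp and Cmas in mannose tumours and between Neu1 and Gne in control tumours, and its range overlapped both neighbours each time. In mannose CD8 cells it stood just above Neu3, overlapping Nanp, and in control CD8 cells between Renbp, which it overlapped, and Gne, which it did not. Gne and Slc35a1 had overlapping ranges in both CD8 groups and separate ranges in both tumour groups, while Slc35a1 and Nanp overlapped in both tumour groups and were separate in both CD8 groups.

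**Figure D1:**
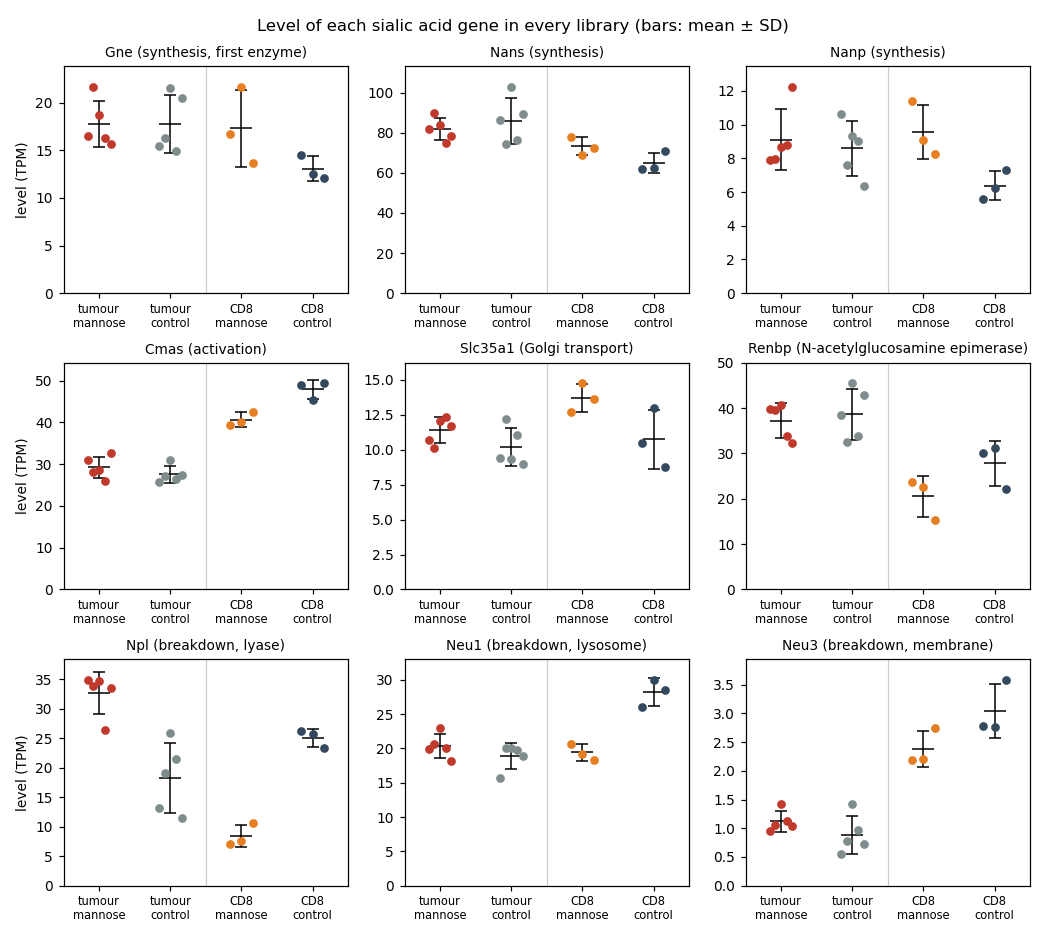
Level of the 9 sialic acid genes in TPM (vertical axes from 0), with 1 point per library, in mannose tumours, control tumours, mannose CD8 cells and control CD8 cells; bars are the mean ± SD over 5, 5, 3 and 3 libraries. Npl is the gene whose tumour groups do not overlap, with mannose tumours from 26.5 to 35.0 TPM above controls from 11.5 to 26.0 TPM, and its CD8 groups lie the other way round, from 6.99 to 10.6 TPM with mannose and from 23.3 to 26.2 TPM in controls.

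In whole tumours the comparison addresses the response of the tissue to the supplement. Npl, the lyase that ends the sialic acid pathway, measured 35.0, 33.8, 34.7, 26.5 and 33.5 TPM in mannose tumours 1 to 5, against 13.2, 19.1, 26.0, 21.5 and 11.5 TPM in control tumours 1 to 5. Every mannose tumour lay above every control, although the lowest mannose tumour and the highest control were close, at 26.48 and 25.98 TPM. The means were 32.7 ± 3.52 TPM with mannose and 18.3 ± 5.97 TPM in controls (SD, n = 5 each), a difference of 0.86 in log2(TPM + 1). It was the only gene of the 9 whose groups did not overlap. Over all genes tested this held for 1.63%, with 1.51% higher and 0.128% lower with mannose, and since Npl was chosen in this contrast nothing is read from its separation. Without control 1 and mannose 3 its difference was 0.74.

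The other 8 genes showed no call in the tumours. By limma with Benjamini-Hochberg adjustment over all genes, 0 of 8 passed an adjusted p of 0.05 and 0 had an unadjusted p under 0.05. Over all 13282 genes 0% passed, and 827 had an unadjusted p under 0.05. All 9 genes, Npl included, passed the filter on low values in every comparison. The 3 synthesis enzymes had differences in log2(TPM + 1) of 0.0041 for Gne, -0.06 for Nans and 0.08 for Nanp, against a median of 0.12 over all genes. Their 95% confidence intervals, -0.30 to 0.31 for Gne, -0.30 to 0.17 for Nans and -0.28 to 0.43 for Nanp, leave room for changes of that size in either direction. Cmas had a difference of 0.08 and Slc35a1 of 0.15, while Renbp had -0.05. The sialidase Neu1 measured 20.0, 20.6, 22.9, 20.0 and 18.1 TPM with mannose against 15.7, 20.0, 20.0, 19.8 and 19.0 TPM in controls, with groups that overlapped and a difference of 0.10 (adjusted p = 0.820, limma). Neu3 had a difference of 0.18 (adjusted p = 0.789, limma). The median over these 8 genes was 0.08.

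Macrophage markers were measured beside Npl in the same tumours. Their sum was 2263 to 4594 TPM in mannose tumours and 1662 to 2946 TPM in control tumours, with overlapping ranges. Of the 12 markers, 11 had a higher mean on the log scale with mannose, 0 passed and 3 had an unadjusted p under 0.05 (limma). Across the 10 tumours, log2(TPM + 1) of Npl and the mean log2 level of the markers had a Pearson correlation of 0.73, and of 0.60 after each group's mean was taken off. For Neu1 these values were 0.86 and 0.84, and for Neu3 0.86 and 0.81. For Renbp they were 0.37 and 0.54, for Cmas 0.56 and 0.47, and for Gne 0.48 and 0.56. Nans had 0.25 and 0.44, Slc35a1 0.26 and -0.0029, and Nanp -0.16 and -0.30. These are descriptions over 10 libraries that share their scaling to a common total. Other markers also lay to 1 side with mannose, though 0 passed by limma. All 10 fibroblast markers (median 0.59 in log2(TPM + 1)) and all 12 T cell markers (0.32) had positive differences, against a median of 0.49 for macrophage markers. Of 6 tested epithelial markers 1 was positive (median -0.24), and of 5 tested muscle markers 0 were (median -1.74). The part of these markers in the Npl difference was not tested.

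**Figure D2:**
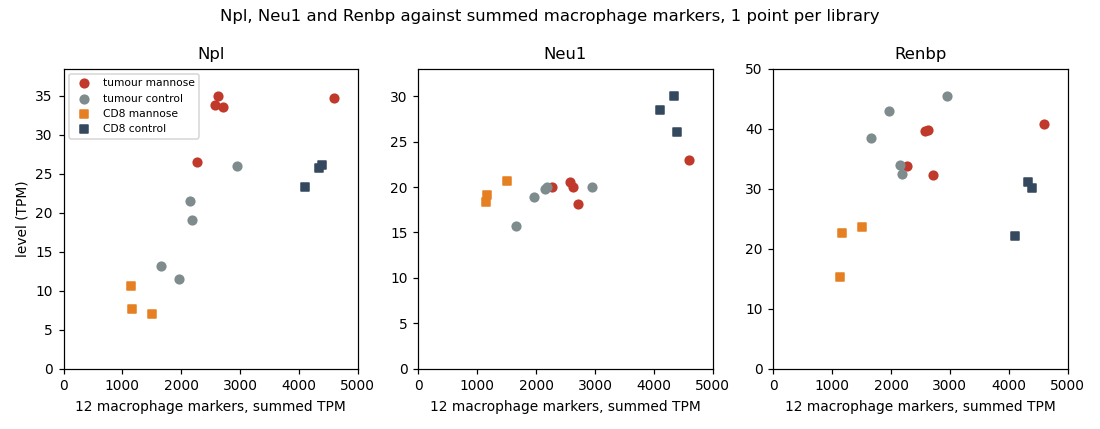
Level of Npl, Neu1 and Renbp in TPM (vertical axes) against the summed TPM of 12 macrophage markers (horizontal axes), with 1 point for each of the 16 libraries, circles for tumours and squares for CD8 cells. Mannose CD8 libraries lie between 1140 and 1511 TPM of markers and control CD8 libraries between 4102 and 4390 TPM, and Npl is low in the first and high in the second.

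The sorted CD8 libraries address the response of the sorted fraction. This fraction also carried macrophage and carcinoma marker RNA in amounts that differed between the groups, as given above. These libraries played no part in the choice of Npl. Npl and the lysosomal sialidase Neu1 fell with mannose, and the synthesis phosphatase Nanp rose by a call that most alternatives ended. The other 6 genes did not pass. These 3 calls among 9 genes stand beside a background of 34.9% of all 14280 genes called (23.2% higher and 11.7% lower), so the share called is near the background. The groups did not overlap for 5 of the 9 genes, Npl, Cmas, Neu1 and Neu3 lower and Nanp higher with mannose, against 51.4% of all genes (33.3% higher and 18.1% lower). The median difference over the 9 genes was -0.23, against 0.09 over all genes, both in log2(TPM + 1).

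Npl measured 6.99, 7.65 and 10.6 TPM in mannose CD8 libraries, against 26.2, 25.7 and 23.3 TPM in control CD8 libraries. All 3 mannose libraries were far below all 3 controls. The means were 8.40 ± 1.91 TPM with mannose and 25.0 ± 1.54 TPM in controls (SD, n = 3 each). The difference was -1.49 ± 0.16 (SE) in log2(TPM + 1), with a 95% interval of -1.87 to -1.11 and an adjusted p of 0.00163 by limma. Npl kept this call in all 13 alternatives, with differences from -1.66 to -1.38 and adjusted p from 2.0e-05 to 0.0361.

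Neu1 measured 20.7, 19.2 and 18.4 TPM with mannose, against 26.0, 30.0 and 28.5 TPM in controls. The mannose libraries all lay below the controls, at about the level seen in the tumours. The difference was -0.52 ± 0.10 (SE) in log2(TPM + 1), with an adjusted p of 0.00922 by limma. With the like pairs averaged, the difference was -0.54 and its adjusted p 0.0697. Neu3 measured 2.18, 2.21 and 2.74 TPM with mannose and 2.78, 2.76 and 3.59 TPM in controls. Its groups were separated by 0.02 TPM between the nearest libraries, and the difference of -0.26 did not pass (adjusted p = 0.266, limma).

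On the synthesis side, Nanp measured 11.4, 9.10 and 8.25 TPM with mannose, against 5.59, 6.26 and 7.30 TPM in controls. Its groups did not overlap, and the difference of 0.51 ± 0.16 (SE) in log2(TPM + 1) passed narrowly (adjusted p = 0.0478, limma). That call was lost in 10 of 13 alternatives. Leaving out any 1 library except mannose 3 ended it, with adjusted p of 0.134, 0.123 and 0.0515 for controls 1, 2 and 3 and of 0.144 and 0.115 for mannose 1 and 2. It was also lost with the like pairs averaged (0.240), with no filter (0.101), and under quantile (0.236) or median-ratio (0.128) scaling. Gne measured 16.7, 21.6 and 13.6 TPM with mannose and 14.5, 12.5 and 12.1 TPM in controls. The groups overlapped and the difference of 0.36 did not pass (adjusted p = 0.153, limma), although it passed without mannose 3 (0.0432) and with array weights (0.00326). Nans had a difference of 0.17 with a 95% interval of -0.04 to 0.38.

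Cmas, the activating enzyme, measured 39.3, 40.2 and 42.6 TPM with mannose, against 49.1, 45.3 and 49.4 TPM in controls. The groups were apart, yet the difference of -0.23 ± 0.08 (SE) did not pass (adjusted p = 0.0703, limma). It passed without mannose 3 (0.0474), with array weights (0.0127) and under quantile (0.0331) or median-ratio (0.0204) scaling. The Golgi transporter Slc35a1 had a difference of 0.34 and overlapping groups (adjusted p = 0.136, limma). Renbp measured 23.7, 22.6 and 15.4 TPM with mannose and 30.2, 31.2 and 22.1 TPM in controls. The groups overlapped, and the difference of -0.43 did not pass (adjusted p = 0.145, limma), although it passed with array weights (0.0136).

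Markers of other cells moved in the same CD8 libraries, where rose and fell count those with an adjusted p under 0.05 by limma. All 12 macrophage markers fell with mannose, with a median difference of -1.87 in log2(TPM + 1), and 6 of 7 tested neutrophil markers and 5 of 7 tested dendritic cell markers fell. Fibroblast markers rose in 7 of 10 cases (median 1.55) and endothelial markers in 3 of 8 (median 0.87). Of 5 tested epithelial markers, 4 rose and 1 fell, and 3 of 12 T cell markers fell, with a median of -0.64 over the 12. By sign alone, 0 of 12 T cell, 0 of 7 neutrophil and 0 of 7 dendritic cell markers were higher with mannose. Of fibroblast markers 9 of 10 were higher, and of endothelial markers 7 of 8. Among the 12 T cell markers, 10 had an unadjusted p under 0.05 (limma). The part of these markers in the differences of Npl, Neu1 and the other sialic acid genes was not tested.

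**Figure D3:**
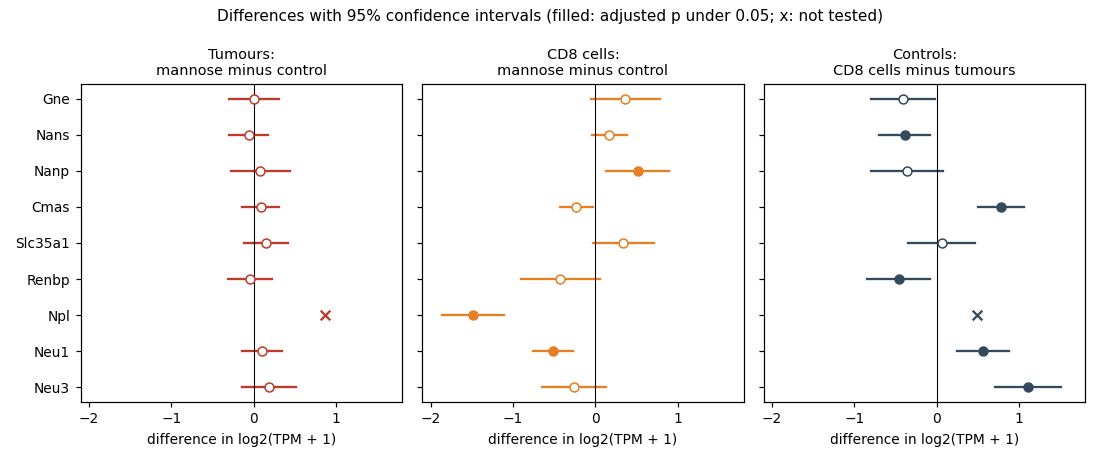
Difference in log2(TPM + 1) for each of the 9 genes between mannose and control tumours, between mannose and control CD8 cells, and between control CD8 cells and control tumours, with 95% confidence intervals from limma; filled points have an adjusted p under 0.05 and the crosses are Npl where its tumour values enter, which was not tested. In CD8 cells Npl lies at -1.49 and Neu1 at -0.52, while the tumour differences of the 8 tested genes lie between -0.06 and 0.18.

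The promoters of Npl and Neu1 are shown because both genes fell with mannose in CD8 cells. RefSeq promoters of the mouse build GRCm38.p6, 250 bases before and 50 bases after the start of each gene, were found for 7 of the 9 genes. The deposited values were made on GRCm39, and the promoter coordinates belong to GRCm38.p6 alone. The sequence of Npl lies at chr1:153549665-153549964 on the minus strand and that of Neu1 at chr17:34931003-34931302 on the plus strand, both written 5′ to 3′ on the gene's own strand. Capitals mark CACGTG, the palindromic E-box that basic helix-loop-helix factors can bind.
Npl: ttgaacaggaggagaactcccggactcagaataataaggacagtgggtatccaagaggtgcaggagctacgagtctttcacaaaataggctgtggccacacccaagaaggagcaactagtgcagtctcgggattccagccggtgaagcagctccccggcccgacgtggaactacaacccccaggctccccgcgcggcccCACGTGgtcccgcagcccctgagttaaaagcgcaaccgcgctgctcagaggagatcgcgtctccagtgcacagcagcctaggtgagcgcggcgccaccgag
Neu1: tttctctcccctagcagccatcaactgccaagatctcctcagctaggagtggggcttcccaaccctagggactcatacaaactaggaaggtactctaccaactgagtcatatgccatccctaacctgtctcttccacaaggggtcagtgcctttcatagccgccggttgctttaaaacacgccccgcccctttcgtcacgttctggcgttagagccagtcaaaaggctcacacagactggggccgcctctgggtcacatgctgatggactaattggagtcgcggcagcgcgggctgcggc
Npl held 1 CACGTG, which begins 51 bases before the start, and Neu1 held 0. Of the 8 promoter entries of these genes 1 held the motif, against 7.15% of 32851 promoters of the same length. The letters GAGGAAG, searched on both strands, were in 2 of the 8 entries (Cmas and Renbp) and in 13.6% of all promoters. The letters GGGCGG, a GC box, were in 5 of the 8 entries, Neu1 among them, and in 35.7% of all promoters, again on both strands. Overlap between motifs was not computed. A match describes these letters and is not evidence of binding.

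Whether mannose acted differently in CD8 cells and tumours was tested by an interaction term fitted to all 16 libraries. Of the 8 genes tested, 1 passed, and it was lower, against a background of 18.7% of 15498 genes (11.0% higher and 7.64% lower). That gene was Neu1, whose effect was lower in CD8 cells, with a difference of -0.62 ± 0.15 (SE) in log2(TPM + 1) and an adjusted p of 0.0111 by limma. It kept this call in all 22 alternatives. These did not include averaging the like pairs, the setting that ended the call of Neu1 within CD8 cells. For Npl the effects had opposite signs, -1.49 in CD8 cells and 0.86 in tumours, a difference of -2.34 given as a description. Nanp (0.44), Gne (0.36), Nans (0.23), Slc35a1 (0.19), Renbp (-0.38), Cmas (-0.31) and Neu3 (-0.44) did not pass. Tumour and CD8 tables list different sets of symbols and were scaled separately, which touches every value set across them.

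Levels in control CD8 libraries were set against those in control tumours, and both carry RNA of several cell types. Cmas, Neu1 and Neu3 were higher in CD8 cells, and Nans and Renbp were lower. These 5 calls among the 8 genes other than Npl stand beside 64.8% of 14487 genes called, and the groups did not overlap for 6 of the 9 genes (Cmas, Neu1 and Neu3 higher, Gne, Nans and Renbp lower) against 64.4% of all genes (39.0% higher and 25.4% lower). Tissue, sorting and the separate scaling of the tables cannot be told apart. The median difference was 0.06 for the 9 genes, Npl included, and 0.18 for all genes, in log2(TPM + 1).

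Neu3 measured 2.78, 2.76 and 3.59 TPM in control CD8 cells, against 0.56, 0.78, 1.42, 0.97 and 0.72 TPM in control tumours. All 3 CD8 libraries lay above all 5 tumours, and the difference was 1.11 ± 0.18 (SE) in log2(TPM + 1) with an adjusted p of 4.3e-04 by limma. Cmas measured 49.1, 45.3 and 49.4 TPM in CD8 cells, against 25.6, 27.3, 31.0, 26.4 and 27.5 TPM in tumours. Its groups were far apart, with a difference of 0.78 ± 0.12 (SE) and an adjusted p of 3.7e-04 by limma. Neu1 averaged 28.2 ± 2.03 TPM in CD8 cells (SD, n = 3) and 18.9 ± 1.84 TPM in tumours (SD, n = 5), with no overlap and an adjusted p of 0.00622 by limma. The calls of Cmas, Neu1 and Neu3 were kept in all 14 alternatives, which did not include averaging the like pairs.

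Nans was lower in CD8 cells, at 65.0 ± 4.93 TPM against 85.9 ± 11.4 TPM in tumours, a difference of -0.39 (adjusted p = 0.0306, limma). The call ended without tumour control 3 (0.0534) or 5 (0.0556) and without CD8 control 1 (0.103) or 2 (0.101). Renbp averaged 27.8 ± 4.98 TPM in CD8 cells and 38.7 ± 5.62 TPM in tumours, a difference of -0.46 (adjusted p = 0.0369, limma). Its call ended without tumour control 3 (0.0715) or 5 (0.0720), without CD8 control 1 (0.0567) or 3 (0.160), with array weights (0.0834) and with no filter (0.0502). Npl averaged 25.0 ± 1.54 TPM in CD8 cells and 18.3 ± 5.97 TPM in tumours, with overlapping groups, a description because its tumour values had chosen it. Gne (-0.41), Nanp (-0.37) and Slc35a1 (0.06) did not pass, though the groups of Gne were apart. Gne passed without tumour control 1 (0.0250), with array weights (0.0375) and under quantile (0.00189) or median-ratio (0.00517) scaling, and Nanp with array weights (0.0113) and under quantile scaling (0.0457). The labelled cells and their macrophage content differ here too, since 10 of 12 macrophage markers were higher in control CD8 libraries than in control tumours. Of tested neutrophil markers 4 of 7 were also higher, and of dendritic cell markers 5 of 7, with 0 lower. Epithelial markers were lower in 5 of 6 cases and higher in 1, and fibroblast markers lower in 7 of 10 and higher in 1. The part of these markers in the differences of the sialic acid genes was not tested.

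Genes around the pathway were followed in 4 lists with 47 genes, which were chosen by function with earlier results of these data known. The alternatives were not run for the genes of these lists, so their calls were not rechecked with the like CD8 pairs averaged. Over all genes that setting took the CD8 calls from 4980 to 1652. In the tumours 0 of 33 tested passed by limma, and 2 had an unadjusted p under 0.05. The background in CD8 cells is 23.2% of all genes higher and 11.7% lower, with a median difference of 0.09. There, of 6 tested genes of other sialic acid handling, 1 fell with mannose, with a median of 0.20. This was Ctsa, the protective protein that Neu1 needs in the lysosome, at 237 ± 29.5 TPM with mannose and 409 ± 11.3 TPM in controls (SD, n = 3 each; -0.79, adjusted p = 0.00241, limma). The sialidases Neu2 and Neu4 stayed under 1 TPM in all 16 libraries. Of 10 genes that supply or recycle hexosamines, 2 rose and 3 fell, with a median of 0.18, beside 23.2% higher and 11.7% lower over all genes. Gfpt1, the entry enzyme, averaged 47.0 ± 1.93 TPM with mannose and 31.6 ± 4.51 TPM in controls, and Nagk, the N-acetylglucosamine kinase, 43.3 ± 6.17 TPM with mannose and 27.6 ± 2.85 TPM in controls. Gnpda1, which returns glucosamine phosphate to glycolysis, averaged 27.7 ± 1.49 TPM with mannose and 45.4 ± 3.12 TPM in controls. Uap1, which makes UDP-N-acetylglucosamine, averaged 85.5 ± 6.84 TPM with mannose and 126 ± 17.4 TPM in controls. Macrophage markers fell in the same libraries and other cell markers moved too, as given above. Their part in the differences of Ctsa and the hexosamine genes was not tested.

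Of 12 tested sialyltransferases, 4 rose and 2 fell with mannose in CD8 cells, with a median of 0.22, beside 23.2% higher and 11.7% lower over all genes. St3gal5, the GM3 ganglioside synthase, averaged 45.0 ± 9.49 TPM with mannose and 9.37 ± 2.90 TPM in controls, a difference of 2.17 (adjusted p = 0.00203, limma), and in tumours it stood at 70.1 ± 6.61 TPM with mannose and 59.5 ± 10.5 TPM in controls. St3gal2 averaged 18.2 ± 2.14 TPM with mannose and 7.59 ± 1.81 TPM in controls, and St3gal6 61.3 ± 9.59 TPM with mannose and 32.3 ± 4.58 TPM in controls. St8sia4, a polysialyltransferase, averaged 11.2 ± 1.80 TPM with mannose and 21.0 ± 1.47 TPM in controls, and was near 1 TPM in both tumour groups. Of 5 tested epithelial markers, Krt8, Krt18, Krt19 and Msln were higher in the same mannose CD8 libraries and Cdh1 was lower. The part of these markers in the sialyltransferase differences was not tested. Another 8 of the 20 sialyltransferases stayed under 1 TPM in all 16 libraries.

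Of 8 tested siglecs, the receptors that bind sialic acid, 7 fell with mannose in CD8 cells and 0 rose, with a median of -0.93, beside 11.7% lower and 23.2% higher over all genes and a median of 0.09. Siglece averaged 2.72 ± 0.302 TPM with mannose and 9.16 ± 1.34 TPM in controls (-1.44, adjusted p = 0.00167, limma). Cd33 averaged 6.13 ± 0.395 TPM with mannose and 15.7 ± 3.32 TPM in controls, Siglec1, the sialoadhesin of macrophages, 5.30 ± 0.451 TPM with mannose and 13.1 ± 1.44 TPM in controls, and Cd22, known from B cells, 2.66 ± 0.251 TPM with mannose and 6.28 ± 2.36 TPM in controls. Macrophage markers fell in the same libraries, as did 6 of 7 tested neutrophil, 5 of 7 tested dendritic cell and 2 of 2 tested B cell markers. Most fibroblast and epithelial markers rose, as given above. Siglech is also in the dendritic cell list and Cd22 in the B cell list, so these genes are counted in both. The part of these markers in the siglec differences was not tested.

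**Figure D4:**
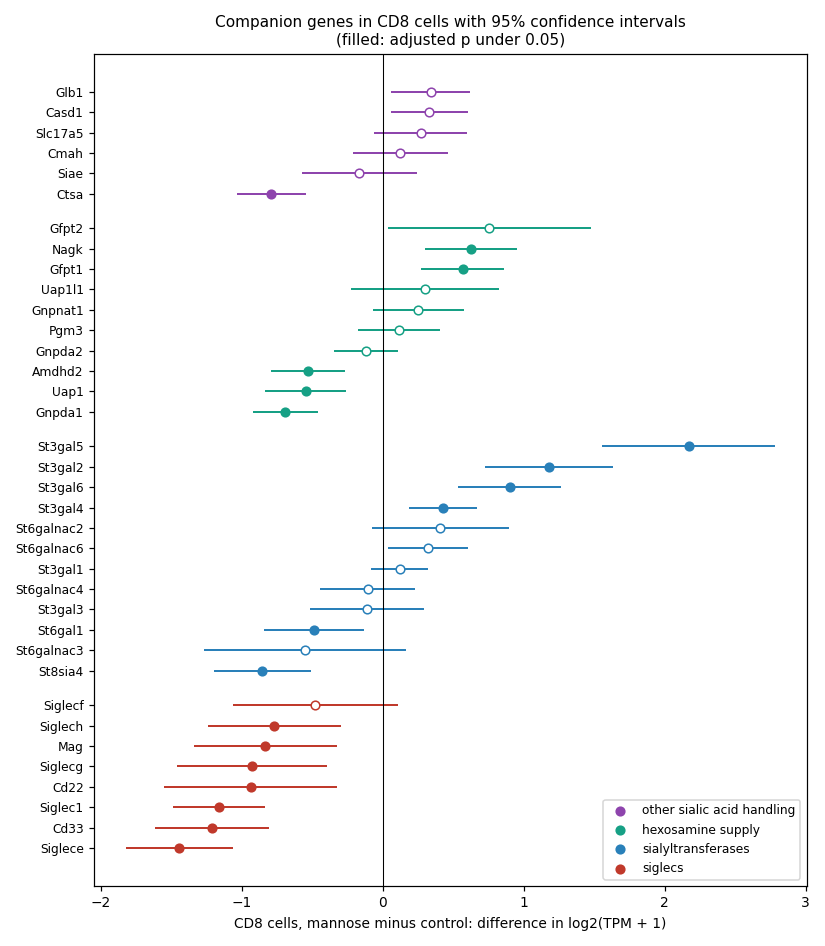
Difference in log2(TPM + 1) between mannose and control CD8 cells for the tested genes of the 4 lists, with 95% confidence intervals from limma; filled points have an adjusted p under 0.05. St3gal5 lies farthest to the right at 2.17 and Siglece farthest to the left at -1.44.

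Between control CD8 cells and control tumours the same lists gave 4 higher and 1 lower of 6 for other sialic acid handling, 4 higher and 2 lower of 10 for hexosamine supply, 2 higher and 4 lower of 12 for sialyltransferases and 3 higher and 1 lower of 9 for siglecs. Over all genes 37.7% were called higher and 27.1% lower. St8sia4 was higher in CD8 cells by 3.46 in log2(TPM + 1) (adjusted p = 1.2e-06, limma), and St3gal5 was lower, with a difference of -2.57 (adjusted p = 1.0e-05, limma). Siae, which removes acetyl groups from sialic acid, averaged 6.86 TPM in CD8 cells and 1.94 TPM in tumours. Uap1 averaged 126 TPM in CD8 cells and 32.7 TPM in tumours, while the related Uap1l1 averaged 19.5 TPM in CD8 cells and 76.5 TPM in tumours.

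Among 9432 genes with at least 1 TPM in all 10 tumours and a mean of at least 5 TPM, those whose levels followed Npl most closely were Ms4a4a, Slc25a5, Capzb, Srp54a, Cdc42, Rbmx, Idh1 and Susd1. Their Pearson correlations with Npl in log2(TPM + 1) over the 10 tumours ran from 0.92 to 0.96, and from 0.79 to 0.91 once each group's mean was taken off. The libraries share their scaling, and these genes were picked for this value. That choice favours genes with higher means in mannose tumours, as Npl had, so nothing is read from their order there. Ms4a4a, a membrane protein of macrophages, averaged 38.6 TPM in mannose tumours and 21.3 TPM in control tumours, and 27.0 TPM in mannose and 117 TPM in control CD8 cells. Idh1, the cytosolic isocitrate dehydrogenase, averaged 24.95 TPM in mannose and 18.7 TPM in control tumours, and 12.8 TPM in mannose and 16.7 TPM in control CD8 cells. Srp54a, a part of the signal recognition particle, did not share the CD8 order of Npl, at 58.3 TPM in mannose and 45.6 TPM in control CD8 cells. Of the other 8 sialic acid genes, Neu3 followed Npl most closely over the tumours with a correlation of 0.75, then Cmas with 0.60 and Neu1 with 0.59. Nans (-0.08) and Renbp (-0.09) were near 0.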

How the data were processed

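Each library has 1 table that the authors deposited, in TPM, a unit read from the column sums. Per the submitters' processing notes the tools were fastp, HISAT and RSEM on GRCm39; tool versions, the annotation release and the strand setting are not given in the sources used here. Nans and Nanp overlap a neighbouring protein-coding gene in GENCODE M21, so reads there may be split. Entries sharing a symbol were summed. Limma 3.58.1 in R 4.3.3, with a variance trend, was run on log2(TPM + 1), which understates the change of low genes, for all genes that reached 1 TPM in a number of libraries equal to the size of the smaller group, with Benjamini-Hochberg adjustment and a threshold of 0.05. The fits were run on simulated data with independent noise for each gene and library, without the like pairs or shared cell content of these libraries. That run checks the code and cannot vouch for the calls made here. Depth is unknown, so no counting interval is given.

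The genes, lists and alternatives were chosen with earlier results of these data known. Named companions are up to 4 per list past the threshold with the largest difference. The genes like Npl are the 8 with the highest correlation over the tumours, with predicted and receptor segment genes left out. Correlations over the CD8 libraries, planned beside them, are not given, since the groups form separate clusters. Alternatives changed the pseudocount (0.1), the filter, the scaling, the weights, the replicate block and the libraries. Leaving out tumour control 1 and mannose 3 together was added after the data were seen. Figures were drawn with matplotlib 3.10.9.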

Additional observations from a re-analysis of the deposited data

Results flagged for a closer look

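Of 18 groups of 5 tumour libraries, 1 per gene and treatment, 3 held a library that a gap rule marked as far from the others. For independent values the rule marks about 1 in 20 groups. The groups here share the same 10 libraries, and the tumour values of Npl had chosen it. The count is therefore a description and is not compared with chance. The marked values were Npl in mannose tumour 4, the lowest of its group at 26.5 TPM, Nanp in mannose tumour 5, the highest at 12.2 TPM, and Neu1 in control tumour 1, the lowest at 15.7 TPM. The mannose effect differed between CD8 cells and tumours, by the limma interaction with adjusted p under 0.05, for Neu1 (-0.62 in log2(TPM + 1)) and for 8 of 37 companion genes tested (21.6%, beside 18.7% of all genes). Higher in CD8 cells were the effects on St3gal5 (1.92), St3gal6 (0.87) and Nagk (0.60), and lower were those on Cd33 (-1.75), Siglece (-1.66), St8sia4 (-1.17), Siglecg (-1.12) and Uap1 (-0.73). For Npl every mannose tumour lay above every control and every mannose CD8 library below every control, a difference between the effects of -2.34, and that difference was not tested because the tumour values had chosen the gene.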

How the results depend on the processing

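Over 540 recomputed and tested differences of single genes, 476 kept their direction and their side of the threshold, 21 lost a call, 17 gained one and 26 changed sign. None of the differences that changed sign had passed, and the cause was not tested. In tumours, quantile normalization turned Gne (-0.12), Nanp (-0.084), Cmas (-0.012), Slc35a1 (-0.0087) and Neu1 (-0.019), and median-ratio scaling turned Gne (-0.13), Nanp (-0.054), Cmas (-0.057) and Neu1 (-0.035). These scalings moved the median of all tumour genes from 0.12 to -0.0046 and -0.010. Array weights turned Nans (0.070) and Renbp (0.094), and leaving out control 1 and mannose 3 turned Gne (-0.058) and Neu1 (-0.0020). With each tumour left out, Neu1 ran up to 0.14, Gne from -0.066 to 0.074, Nans from -0.11 to 0.0048, Nanp from -0.023 to 0.15 (0.16 without control 1 and mannose 3) and Renbp from -0.11 to 0.013. Between control CD8 cells and control tumours, Slc35a1 was -0.22 and -0.14 under these scalings and -0.072 to 0.18 with each library left out.

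Of the 9 genes, 3 were called in CD8 cells, 6 with array weights, 1 with like pairs averaged and 2 to 5 with each library left out. Between control CD8 cells and control tumours 5 were called, 7 after quantile normalization and 3 to 6 with each library left out. The interaction called 1, and 4 with array weights. The replicate number as a block called 3 in CD8 cells, with Renbp gained (adjusted p = 0.0281) and Nanp lost (0.0888), and 0 in tumours. Same-numbered libraries had correlated deviations from -0.51 to 0.28 in tumours and from 0.06 to 0.16 in CD8 cells, where replicates 2 and 3 matched their own number best and replicate 1 did not. Not every value exceeded 0.1, so the numbers were not taken as pairs. Over all genes, 4980 CD8 calls (3306 higher, 1674 lower) became 1652 with like pairs averaged, 8631 with array weights and 2803 to 6119 with each library left out. Their split was 2697 higher and 2299 lower after quantile normalization and 2578 and 2534 after median-ratio scaling. Between control CD8 cells and control tumours the split of 5459 higher and 3930 lower became 4831 and 5265 after quantile normalization. The 2896 interaction calls became 6323 with array weights and 1905 to 4010 with each library left out. Under median-ratio scaling Neu3 missed the tumour filter. Depth is unknown, and the tumour values of Neu3, near 1 TPM, are the lowest here.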
